A study of Mus musculus with 3 samples.

Results

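The cells described here are bone marrow stem and progenitor cells with an intermediate level of CD48 on their surface and no transcript of 5 lineage genes. They were chosen by 2 measured values: a raw CD48 antibody tag count above the 30th and below the 60th percentile of all listed cells, and 0 unique molecular identifiers (UMIs, each standing for 1 captured molecule) of Elane (neutrophil elastase), Dntt (the lymphoid DNA polymerase TdT), Pf4 (platelet factor 4), Car1 (a red cell carbonic anhydrase) and Klf1 (an erythroid transcription factor). Of 3470 listed cells, 530 met both conditions. They are called CD48-intermediate cells below. Of the 1647 cells with 0 UMIs of the 5 transcripts, 645 lay below the range and are called CD48-lower, and 472 lay above it and are called CD48-higher. Another 493 cells had a CD48 tag in the range and at least 1 of the 5 transcripts.

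The study sorted LSK cells (negative for mature lineage antigens, positive for Sca1 and Kit) from mouse bone marrow. The cells came from 2 Helios-deficient and 2 wild-type mice. Helios is the zinc finger transcription factor encoded by Ikzf2, a member of the Ikaros family. The labels give the genotype only as Helios-deficient or wild type, and the deleted part of Ikzf2, the age of the mice and any treatment are not given in the sources used here. Each mouse carried its own hashtag antibody, 2500 cells per mouse were pooled, and 1 droplet run with 3 prime chemistry gave the RNA, the hashtags and the tags of CD41, CD48, CD150 and CD135. All 3 libraries share 1 matrix and its 4108 barcodes.

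CD48 and CD150 are receptors of the SLAM family, which signal between blood cells. In the mouse LSK compartment, the most primitive stem cells carry CD150 and lack CD48, and CD48 appears as cells become multipotent progenitors. CD135 is the receptor tyrosine kinase encoded by Flt3, a mark of progenitors with lymphoid potential, and CD41 is the platelet integrin encoded by Itga2b.

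The 530 cells comprised 83 and 108 cells of the Helios-deficient mice 1 and 2 and 185 and 154 cells of the wild-type mice 1 and 2. Their CD48 tag counts ran from 77 to 133, and the nearest cells outside the gate had 76 and 134. Their summed gene UMIs came to 701220 and 913755 for Helios-deficient and to 1374293 and 1180326 for wild-type mice. The median cell held 7184 gene UMIs, against 6162 in CD48-lower and 10155 in CD48-higher cells. The CD48 tag count rose with the gene UMI count across the listed cells (Spearman's rho 0.51 over 3470 cells of 1 run, given as a description), so a raw tag gate also orders cells by depth. Levels below are in CPM, the UMIs of a gene summed over the cells of a mouse relative to all gene UMIs of those cells, and in such sums fewer cells with a transcript and fewer copies per cell cannot be told apart.

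Transcripts of the 3 genes proposed as marks of the CD48-intermediate cells were all found in them. Cd48 RNA, from the gene of the gating tag (chromosome 1, 171681245 to 171705258, GRCm38.p6), reached 151 and 132 CPM in Helios-deficient animals, and 135 and 99.97 CPM in wild-type animals. Its mean was 129.7 ± 21.5 CPM (SD, n = 4 mice), between 23.7 ± 4.45 in CD48-lower and 304.4 ± 9.96 in CD48-higher cells. The protein gate chose this order, which is given without a test. At least 1 Cd48 UMI was seen in 48.5% of the 530 cells. When every cell was thinned to 4000 UMIs the share was 34.0% (95% Wilson interval 30.1% to 38.2%), against 6.69% of CD48-lower and 64.7% of CD48-higher cells, with 13, 47 and 5 shallower cells left out.

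Cd244, which encodes the SLAM family receptor that binds CD48, was at 37.1 and 27.4 CPM in the Helios-deficient and 32.0 and 28.8 CPM in the wild-type CD48-intermediate cells. In CD48-lower cells of the same mice it was at 10.1, 5.10, 12.8 and 11.5 CPM, so every mouse was higher in the intermediate cells and the groups did not overlap. The log2 fold change was 1.64 ± 0.25 (SE; edgeR quasi-likelihood test with mouse as a block, adjusted p = 5.7e-08). In CD48-higher cells it was at 19.2, 34.4, 45.4 and 34.3 CPM. That range enclosed the intermediate cells, and the log2 difference from the intermediate cells did not pass the test (-0.26, edgeR adjusted p = 0.416).

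Vldlr, the very low density lipoprotein receptor (chromosome 19, 27216480 to 27254231), had its highest mean in the intermediate cells. It was at 92.7, 48.2, 52.4 and 61.0 CPM there, in the order Helios-deficient mice 1 and 2 and wild-type mice 1 and 2. The same mice had 64.5, 28.0, 34.97 and 42.3 CPM in CD48-lower cells and 67.1, 33.3, 36.2 and 46.6 CPM in CD48-higher cells. Each mouse was higher in the intermediate cells than in both flanks, although the mice differed more from each other than the classes did. The log2 fold change was 0.59 ± 0.15 over CD48-lower cells (edgeR adjusted p = 0.0028) and 0.42 ± 0.14 over CD48-higher cells (edgeR adjusted p = 0.0298). The first call was lost with DESeq2 (adjusted p = 0.105). The second was lost with DESeq2, after leaving out any 1 mouse (edgeR adjusted p = 0.0663 to 0.127) and after thinning (log2 fold change 0.23, adjusted p = 0.511). The 3 markers were proposed with earlier results of these cells known, so these tests are no independent evidence for them.

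Along deciles of the CD48 tag over all listed cells, with the lineage-free cells of the 4 mice summed, Vldlr rose from 33.5 CPM in the first decile to 71.0 in the fifth and was at 33.8 in the last. Sox4, a transcription factor of immature and lymphoid progenitors, had its maximum in the same decile, at 713 CPM. Cd244 went from 8.03 CPM in the first decile to 44.4 in the sixth and stayed between 31.9 and 42.3 after that. Procr, the endothelial protein C receptor and a stem cell marker, fell along the same axis from 88.3 to 18.9 CPM. The gene Mpo (myeloperoxidase, an early granulocyte and monocyte product) went from 33.5 to 586 CPM. These profiles are descriptions of 1 run, and the tag and the RNA share each cell's depth.

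**Figure D1:**
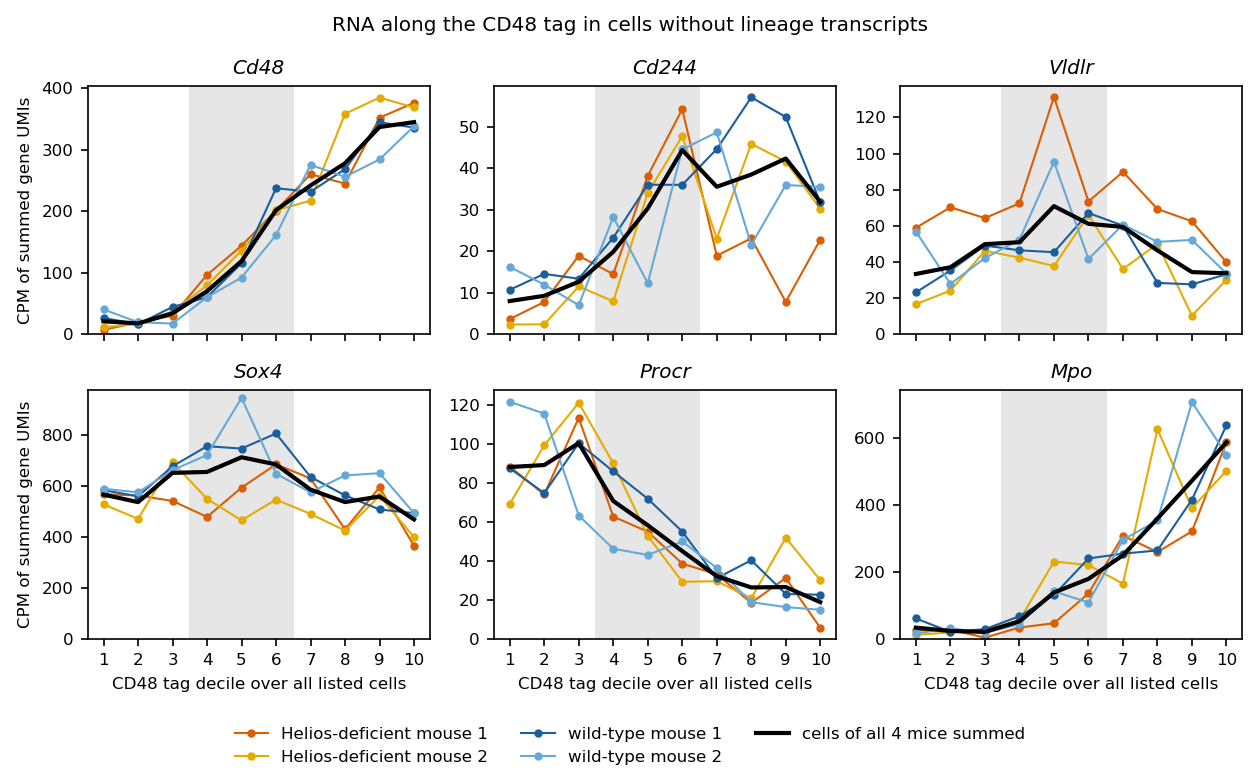
CPM of summed gene UMIs (vertical axis, linear) against the decile of the CD48 tag over all listed cells (horizontal axis), for cells with 0 UMIs of the 5 lineage transcripts. Thin lines are the 4 mice and the black line is their summed cells. Vldlr reaches 71.0 CPM in the fifth decile and 33.8 in the last, while Procr goes from 88.3 to 18.9 CPM.

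Of the other antibody targets, Slamf1, which encodes CD150, was at 6.26 ± 2.80 CPM in the intermediate cells, 10.8 in CD48-lower and 2.28 in CD48-higher cells (SD, n = 4 mice), and neither difference passed the edgeR test (adjusted p = 0.222 and 0.143). Itga2b was at 29.1 CPM, against 34.7 and 30.9 in the CD48-lower and CD48-higher cells. Flt3 RNA was at 82.7, 91.9, 148 and 135 CPM in the intermediate cells and at 56.9, 58.6, 77.3 and 75.6 CPM in CD48-lower cells. It rose in all 4 mice, by 0.80 ± 0.11 on the log2 scale (edgeR adjusted p = 2.3e-09). Against CD48-higher cells the difference of 0.29 (edgeR adjusted p = 0.0324) was 0.04 after thinning (adjusted p = 0.904), and the call was lost without wild-type mouse 1 (0.207) or wild-type mouse 2 (0.211).

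The tags themselves were compared as a percentage of the tag UMIs other than CD48, averaged per mouse. CD135 took 25.3 ± 0.49% in the intermediate cells (SD, n = 4 mice) and 23.8 ± 0.55% in CD48-lower cells. The difference of 1.502 percentage points was positive in 4 of 4 mice, and the exact sign-flip permutation test gave p = 0.125, the smallest that 4 mice allow. CD150 took 52.3 ± 0.91%, against 54.0 ± 1.07% in CD48-lower cells, a difference of -1.75 points that was negative in 4 of 4 mice (exact permutation p = 0.125). The tag shares sum to a fixed total in each cell, so the CD135 and CD150 differences are tied and are not separate results. Median raw CD150 tags in the intermediate cells were 80 and 78 UMIs in Helios-deficient and 76 and 75.5 in wild-type mice. In CD48-lower cells they were 71 and 77 in Helios-deficient and 77 and 74 in wild-type mice. Over all cells the medians were 77 and 75, so the lower share is not a lower raw tag. Against CD48-higher cells the differences were -0.17 points for CD135 and 0.06 points for CD150 (exact permutation p = 0.375 and 0.875). CD41 took 22.4% in the intermediate, 22.1% in the lower and 22.3% in the higher cells (exact permutation p = 0.375 and 0.875). Of these 6 two-sided comparisons none could reach the threshold of 0.05.

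Against CD48-lower cells, the CD48-intermediate cells had less RNA of stem cell genes and more of genes of multipotent progenitors, early granulocyte and monocyte cells and DNA replication. In all, 566 of 9005 genes tested were called (6.29%, adjusted p below 0.05), 308 higher (3.42%) and 258 lower (2.87%). The sign was the same in all 4 mice for 23.7% of the genes tested. Against CD48-higher cells the stem cell, granulocyte and monocyte and DNA replication genes lay the other way round. Multipotent progenitor genes were mixed there, with 2 higher and 5 lower of 17 tested. In that comparison 977 of 9005 genes were called (10.8%), 367 higher (4.08%) and 610 lower (6.77%). The sign was the same in all 4 mice for 27.8% of genes. Without TMM scaling 1003 genes were called in the second comparison, split into 581 higher and 422 lower. Without Helios-deficient mouse 2 the first comparison had 279 calls, and the second had 567 without wild-type mouse 1 and 629 without wild-type mouse 2. Both comparisons use the same sums of the intermediate cells, so their values are given side by side and no overlap is drawn between them.

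Of 33 stem cell genes tested, 23 were lower and 1 was higher than in CD48-lower cells, with a median log2 difference of -0.55 against 0.01 over all genes. The higher gene was Vldlr. Pdzk1ip1, a membrane protein gene used to mark stem cells, was at 103, 97.4, 93.9 and 97.4 CPM in the intermediate cells and at 217, 235, 202 and 183 CPM in the CD48-lower cells of the same mice. Every mouse fell, by 1.10 ± 0.09 on the log2 scale together (edgeR adjusted p = 2.9e-21). Procr went from a mean of 93.4 to 57.6 CPM (log2 fold change -0.64, edgeR adjusted p = 5.8e-05). Mllt3, a chromatin factor of stem cell maintenance, went from 104 to 34.4 CPM. The cell cycle inhibitor Cdkn1c fell by 1.64 and the imprinted gene Ndn by 1.75 on the log2 scale.

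The intermediate cells still held more of this programme than CD48-higher cells. Of the same 33 genes, 24 were higher and 0 lower against CD48-higher cells, with a median of 0.62. With DESeq2 the count was 14. Pdzk1ip1 was at 43.8, 45.5, 31.7 and 48.0 CPM in CD48-higher cells, below every intermediate value (log2 fold change 1.19 ± 0.12, edgeR adjusted p = 2.9e-15). Procr was at 25.5 CPM on average there (log2 fold change 1.14). Hlf and Meis1, transcription factors of stem cell self-renewal, were higher in the intermediate cells by 0.76 and 0.62 on the log2 scale. Summed over the list, the stem cell genes stood at 7567, 7533, 6680 and 5972 CPM in the lower cells, at 5731, 5233, 4923 and 4496 in the intermediate cells and at 4360, 4132, 3265 and 3060 in the higher cells. The steps within a mouse were all downward.

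The largest falls from CD48-lower cells were in genes with under 15 CPM in the intermediate cells. Meg3, an imprinted long noncoding RNA, was at 79.6, 59.5, 41.0 and 69.2 CPM in the lower cells and at 7.13, 7.66, 5.09 and 7.62 CPM in the intermediate cells. Its log2 fold change was -3.12 ± 0.23 (edgeR adjusted p = 1.6e-25), and the groups were far apart. Sult1a1 (a sulfotransferase) fell by 2.26, Tinagl1 by 2.19, Aldh1a1 (a retinaldehyde dehydrogenase) by 1.99 and Tgm2 (a transglutaminase) by 1.76 on the log2 scale. The caveolar gene Cavin2, of the megakaryocyte list, fell by 2.36.

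Of 17 multipotent progenitor genes tested, 11 were higher and 1 lower than in CD48-lower cells (median 0.50). Cd34, the sialomucin that separates short-term from long-term stem cells, was at 506, 526, 541 and 515 CPM in the intermediate and at 298, 311, 356 and 341 CPM in the lower cells. The rise of 0.68 ± 0.06 (edgeR adjusted p = 1.1e-19) left no overlap. Its mean in CD48-higher cells was 506 CPM. Tespa1, an adaptor of lymphocyte receptor signalling, rose by 1.47 and Nkg7, a granule protein gene, by 1.38 on the log2 scale. Both were lower than in CD48-higher cells, by -0.70 and -0.75. Against CD48-higher cells 2 of the 17 genes, Sox4 and Flt3, were higher and 5 were lower. Without TMM scaling the counts were 3 and 3, and 3 were lower without Helios-deficient mouse 1 or wild-type mouse 2. The Flt3 call was lost in 8 of 15 alternatives. Sox4 was at 593, 524, 768 and 761 CPM in the intermediate cells and at 501, 471, 540.4 and 578 CPM in the higher cells of the same mice, higher in each mouse (log2 fold change 0.29, edgeR adjusted p = 9.3e-06). Its rise over CD48-lower cells, 0.19 (adjusted p = 0.0129), was lost without either wild-type mouse, without mouse 1 at adjusted p = 0.418 and without mouse 2 at 0.212.

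Among the largest rises over CD48-lower cells were Mpo, Ccl9, Adgrg3, Bex6, Rgs10 and Tespa1. Ccl9, a chemokine gene, was at 12.6, 28.9, 20.8 and 21.8 CPM in the lower cells and at 44.2, 77.7, 123 and 83.9 CPM in the intermediate cells, which did not overlap (log2 fold change 2.01 ± 0.17, edgeR adjusted p = 6.9e-16). The adhesion receptor Adgrg3 rose by 1.82.

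Lymphoid priming genes moved in both directions. Of 17 tested, 7 were higher and 1 lower than in CD48-lower cells (median 0.36), and 4 higher and 2 lower than in CD48-higher cells (median 0.07). The first count was 4 without wild-type mouse 1 and 4 without wild-type mouse 2, and 2 were higher in the second comparison without wild-type mouse 1. Cd52, a glycoprotein of lymphoid cells, stood at a mean of 84.6, 149.9 and 248 CPM in the lower, intermediate and higher cells. Satb1, a chromatin organiser of lymphoid genes, rose by 0.97 over the lower cells, but not past the threshold without wild-type mouse 1 (edgeR adjusted p = 0.0535). Ltb, which encodes lymphotoxin beta, ran the other way. It was at 244, 231, 293 and 322 CPM in the lower cells, at 137, 125, 240.1 and 236 CPM in the intermediate cells and at 63.0, 69.9, 97.3 and 117 CPM in the higher cells. It fell within each mouse at both steps (log2 fold change -0.54 over the lower and 1.04 over the higher cells, edgeR adjusted p = 4.5e-09 and 3.0e-20).

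Granulocyte and monocyte genes were compared next, with Elane at 0 by choice. The level that free RNA in the droplets gives was not estimated, so a transcript's presence alone is not read as expression. Of 15 tested, 6 were higher and 0 lower than in CD48-lower cells (median 0.45, 3 higher without wild-type mouse 1), and 7 were lower than in CD48-higher cells (median -0.29, 4 lower without wild-type mouse 1). Cebpa, the transcription factor of granulocyte commitment, rose from 13.5 to 32.1 CPM on average (log2 fold change 1.32, edgeR adjusted p = 1.7e-06). Mpo was at 75.6, 155, 144 and 90.7 CPM in the intermediate cells and at 19.0, 18.7, 38.3 and 21.8 CPM in the lower cells. Its rise of 2.19 (edgeR adjusted p = 0.0141) was lost without Helios-deficient mouse 1 (adjusted p = 0.0776). In CD48-higher cells it was at 417 CPM on average (log2 difference -1.89). The dendritic and monocyte factor Irf8 was lower than in CD48-higher cells by -1.52, and the neutrophil protease gene Ctsg by -2.52, a call lost without Helios-deficient mouse 1 (adjusted p = 0.0966) or wild-type mouse 1 (adjusted p = 0.0621).

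Of 13 megakaryocyte and platelet genes, 4 were lower and 1 higher than in CD48-lower cells (median -0.27), and 4 were higher than in CD48-higher cells (median 0.58, 2 higher without wild-type mouse 1). Mmrn1, which encodes the platelet protein multimerin, was at 67.8, 27.3 and 7.13 CPM on average in the lower, intermediate and higher cells. Gng11, a G protein subunit gene, was at 178, 104 and 60.7 CPM. Of 15 erythroid and shared genes, 4 were lower than in CD48-lower cells, among them Gata2, a stem and megakaryocyte-erythroid factor (145 to 92.5 CPM, log2 fold change -0.64), and 4 were higher than in CD48-higher cells, among them Car2 (log2 fold change 0.55).

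S phase genes stepped upwards with CD48. Summed over 37 S phase genes, the level was 2601, 2086, 2447 and 2067 CPM in the lower cells, 3383, 3642, 2971 and 2810 CPM in the intermediate cells and 4661, 4642, 4295 and 4255 CPM in the higher cells. The 3 classes did not overlap. Of the 37 genes, 25 were higher than in CD48-lower cells (median 0.51) and 32 lower than in CD48-higher cells (median -0.60). The first count was 9 without Helios-deficient mouse 2, 11 with DESeq2 and 16 after thinning. Rfc2, a clamp loader subunit gene, rose from 209 to 287 CPM (log2 fold change 0.48), and Tyms, thymidylate synthase, from 57.8 to 100.2 CPM (0.75). The replicative helicase gene Mcm5 was at 104 CPM, against 172 CPM in CD48-higher cells (-0.78).

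Summed over the list, the G2 and M phase genes stood at 2473, 3698, 2689 and 3414 CPM in the intermediate cells and at 2356, 2728, 2244 and 2097 CPM in the lower cells, which overlapped. In the higher cells they were at 5113, 4836, 4704 and 4558 CPM, above every intermediate sum. Of 46 genes tested, 12 were higher than in CD48-lower cells (median 0.54) and 30 lower than in CD48-higher cells (median -0.77). The first count ranged from 0 to 16 over the alternatives, and it was 0 when the gate used the CD48 share of all tag UMIs. Leaving out Helios-deficient mouse 2 or wild-type mouse 2 each gave 7. The second count was 20 without wild-type mouse 1 and 13 with DESeq2. Cdk1, the mitotic kinase, was at 66.1 CPM, against 132 CPM in CD48-higher cells (log2 fold change -1.001, edgeR adjusted p = 3.7e-14). Cdk6, the G1 kinase that governs exit from quiescence in stem cells, rose from 176 to 333 CPM over the lower cells (0.95), while Ccnd2, cyclin D2, fell from 455 to 336 CPM (-0.45).

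**Figure D2:**
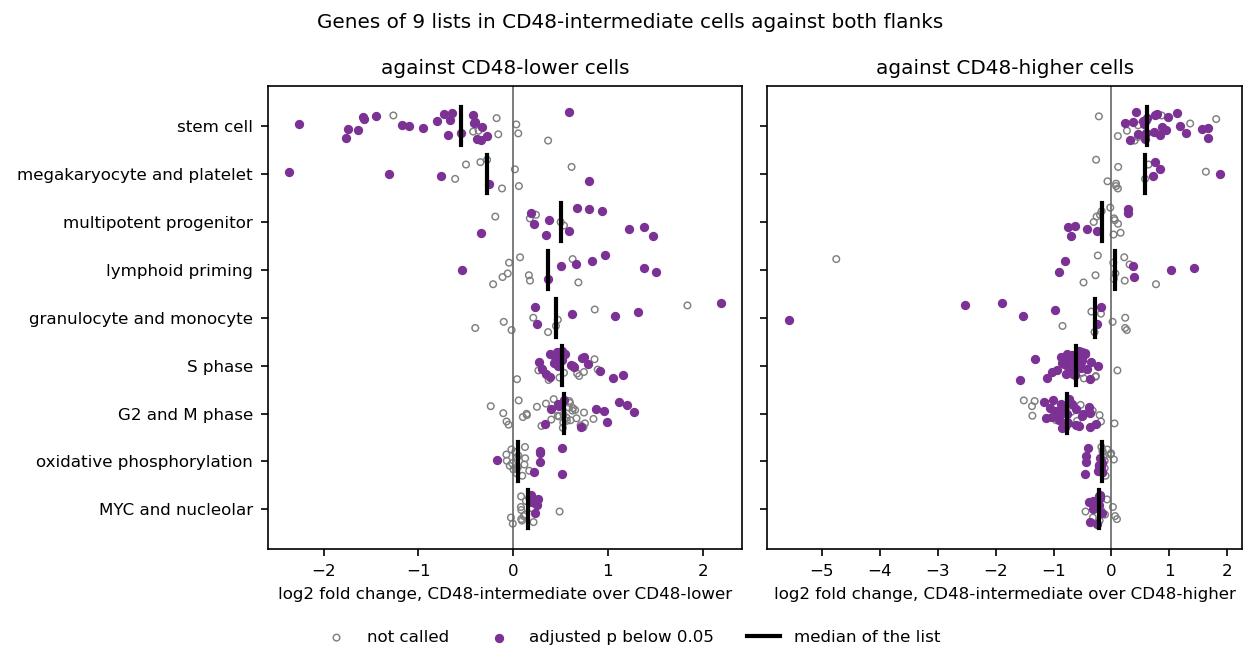
Log2 fold change of each gene of 9 lists (horizontal axes) in CD48-intermediate cells over CD48-lower cells (left) and over CD48-higher cells (right). Filled points passed the edgeR test at an adjusted p below 0.05, open points did not, and black bars are list medians. The stem cell list has a median of -0.55 on the left and 0.62 on the right, and the S phase list 0.51 and -0.60.

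Metabolic and growth genes changed less. Of 24 oxidative phosphorylation genes, 6 were higher and 1 lower than in CD48-lower cells (median 0.05, 3 higher without Helios-deficient mouse 2) and 12 were lower than in CD48-higher cells (median -0.17, 7 lower without TMM scaling and 7 without wild-type mouse 2). Ndufa4, a respiratory chain subunit gene, was at 679, 961 and 1227 CPM on average in the lower, intermediate and higher cells, and differed from both (0.51 and -0.41). Of 20 MYC and nucleolar genes, 5 were higher than in the lower cells (median 0.15) and 10 lower than in the higher cells (median -0.21). The nucleolar chaperone gene Npm1 was lower than in the higher cells by -0.22. Of 6 genes of MHC class II, which presents peptides to T cells, 4 were lower and 1 higher than in CD48-lower cells (median -0.70). H2-Aa was at 91.7 CPM in the lower and 42.0 CPM in the intermediate cells (log2 fold change -1.07, edgeR adjusted p = 1.7e-07).

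Of 14 quiescence and cell cycle inhibition genes, 3 were higher and 3 lower in each comparison. Txnip, a redox regulator of stem cell quiescence, was at 303.1, 239 and 123 CPM on average in the lower, intermediate and higher cells. Of 11 immediate early genes, which respond to cell handling, 1 was higher and 2 lower than in the lower cells, and 4 were higher than in the higher cells, among them Jund (126 against 82.2 CPM, not called without Helios-deficient mouse 1, adjusted p = 0.0865). Of 22 interferon genes, 1 (Iigp1, not called by DESeq2, adjusted p = 0.252) was lower than in the lower cells and 2 were higher than in the higher cells. Of the SLAM family and adaptor genes tested, Cd244 was higher than in the lower cells, and Cd48 is left out of this count because its protein set the gate. None of 3 Ikaros family genes was called in either comparison, and Ikzf2 was at 89.3, 88.7 and 80.8 CPM in the lower, intermediate and higher cells.

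Markers of other cell types were few in the intermediate cells. Cells with 3 or more UMIs of macrophage or B cell and plasma cell markers made up 9.64%, 8.33%, 5.41% and 11.04% of them in the 4 mice, 3.36% to 8.13% of the lower and 8.62% to 18.2% of the higher cells. The 8 B cell and plasma cell markers summed to 73.3 to 109 CPM in the intermediate cells, with Cd79a and Ms4a1 at 0 in all 4 mice and Pax5 likewise. In CD48-higher cells they summed to 65.7, 10266, 20369 and 75.4 CPM, mostly Igkc, so Helios-deficient mouse 2 and wild-type mouse 1 stood apart. Of the 5 tested, 4 were called lower in the intermediate cells. In Helios-deficient mouse 1 and wild-type mouse 2 the sums of the higher cells did not exceed the intermediate range. The 10 macrophage markers summed to 54.2, 54.7, 18.9 and 50.8 CPM. The T and NK cell markers reached at most 5.93 CPM with Cd3d, Cd3e and Cd3g at 0, and mature neutrophil markers at most 4.38 CPM with Lcn2, Mmp8 and Ngp at 0. Mast cell and basophil markers summed to 11.9 to 55.8 CPM, nearly all Cpa3, and endothelial and stromal markers to 27.1 to 41.6 CPM, mostly Emcn. Plasmacytoid dendritic cell markers summed to 156 to 187 CPM, nearly all Bst2, with Siglech at 0. With the macrophage and B cell marker cells left out, 23 stem cell genes and 23 S phase genes were called against the lower cells, and 22 and 29 against the higher cells.

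All 2940 remaining listed cells, which include both flanks and the cells with lineage transcripts, were the next reference. Of 10696 genes tested, 689 differed (6.44%), 232 higher (2.17%) and 457 lower (4.27%) in the CD48-intermediate cells. Leaving out wild-type mouse 1 left 334 calls. Thinning left 102, 24 higher and 78 lower, and the remaining cells were deeper, at a median of 8138 UMIs per cell. Without TMM scaling 321 genes were higher and 334 lower. Genes that accompany the 5 excluded transcripts were bound to differ through the rule, and their values are descriptions: 10 of 21 granulocyte and monocyte genes were lower (median -1.03), 11 of 22 lymphoid priming genes (median -0.55, 7 without wild-type mouse 1), 5 of 18 megakaryocyte genes (median -0.35) and 7 of 23 erythroid and shared genes (median -0.27). Among these lower genes, Ctsg was at 23.4 against 141 CPM and Irf8 at 12.8 against 47.0 CPM. Other genes of these lists were called higher. They were 0 granulocyte and monocyte, 2 lymphoid priming (Ltb and Il2rg) and 2 megakaryocyte genes (Selp and Gng11). The erythroid and shared list had 4 (Car2, Nfe2, Lmo2 and Muc13).

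Among 35 stem cell genes, 12 were higher and 1 lower than in the remaining cells (median 0.24, against 0.01 over all genes). Thinning left 5 of them higher. The remaining cells include those with lineage transcripts, so the rule also bears on these genes and on the cycling genes below. The p-values of this comparison are therefore descriptions and no independent evidence. Vldlr was higher in 4 of 4 mice (63.6 ± 20.1 against 39.7 ± 12.1 CPM, log2 fold change 0.64 ± 0.11, edgeR adjusted p = 5.2e-06). Hlf was at 147, 163, 189.9 and 199.9 CPM in the intermediate and at 104, 122, 133 and 138 CPM in the remaining cells, a rise of 0.46 that was 0.19 after thinning (adjusted p = 0.379). Krt18, a keratin gene on the stem cell list, was at 125 against 86.9 CPM (0.51), and Sox4 at 661 against 517 CPM (0.32, edgeR adjusted p = 6.3e-10). Selp, which encodes P-selectin and is on the megakaryocyte list, was higher by 0.72 and the kinase gene Pim2 by 0.71, and both calls were lost after thinning (adjusted p = 0.185 and 0.212).

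Cycling genes were lower than in the remaining cells. The counts were 23 of 37 S phase genes (median -0.29) and 27 of 49 G2 and M phase genes (median -0.70), and 1 and 10 after thinning. Without wild-type mouse 1 they were 8 and 16. Ube2c, a mitotic ubiquitin enzyme gene, was at 42.8, 39.4, 32.0 and 58.5 CPM in the intermediate cells and at 126, 123, 87.1 and 104 CPM in the remaining cells, apart in every mouse (log2 fold change -1.34 ± 0.10). That call was lost with the gate on the CD48 share (edgeR adjusted p = 0.2). Of 24 oxidative phosphorylation genes 12 were lower (median -0.12), and of 20 MYC and nucleolar genes 6 (median -0.13). Of 18 multipotent progenitor genes 6 were higher and 3 lower (median -0.02).

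Ikzf2, the targeted gene, was at 84.1 and 94.1 CPM in Helios-deficient CD48-intermediate cells, and at 90.2 and 86.4 CPM in those of wild-type mice. The groups overlapped (log2 fold change 0.03 ± 0.15, edgeR adjusted p = 0.984). A 3 prime library does not read a deletion elsewhere in the gene, so this neither supports nor contradicts the labels. Over both genotypes, Ikzf2 was higher in the intermediate than in the remaining cells of each mouse (88.7 ± 4.39 against 71.5 ± 7.34 CPM, log2 fold change 0.30 ± 0.09, edgeR adjusted p = 0.0173). The call was lost without wild-type mouse 1 (adjusted p = 0.177), without wild-type mouse 2 (0.127), with DESeq2 (0.264) and after thinning (0.326).

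CD48-intermediate cells made up 14.9% (95% Wilson interval 12.2% to 18.1%) and 13.1% (10.97% to 15.6%) of the Helios-deficient mice's listed cells. In the wild-type mice they made up 15.7% (13.8% to 17.9%) and 16.8% (14.6% to 19.4%). The means were 14.004 ± 1.27% and 16.3 ± 0.78% (SD, n = 2 mice each), a difference of -2.29 percentage points with no overlap between the genotypes. The exact permutation test gave p = 0.333, the smallest that 2 mice against 2 allow. Of the lineage-free cells alone, the shares were 31.9% and 30.3% in the Helios-deficient and 29.8% and 37.6% in the wild-type mice, which overlapped (exact permutation p = 1). CD48-higher cells made up 10.4% and 9.34% against 17.4% and 14.6% (exact permutation p = 0.333). CD48-lower cells made up 21.4% and 20.9% against 19.7% and 13.5%, a difference of 4.56 points. Cells with lineage transcripts in the same CD48 range made up 16.7% and 16.7% against 11.3% and 14.1%, a difference of 4.01 points. Neither of these overlapped between the genotypes (exact permutation p = 0.333 each). After thinning the difference for the intermediate cells was -0.15 points (exact permutation p = 1). The intervals cover counting error only. Helios-deficient cells were deeper in these classes. The median intermediate cell held 7497 and 7480 gene UMIs in Helios-deficient mice, and 6820 and 7044 in wild-type mice. In CD48-higher cells the medians were 11894 and 11107 against 9615 and 9727, and in CD48-lower cells 6251 and 6455 against 5814 and 5892. The raw gate and the rule of 0 UMIs both depend on depth, and its part in these share differences was not tested beyond the thinning.

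**Figure D3:**
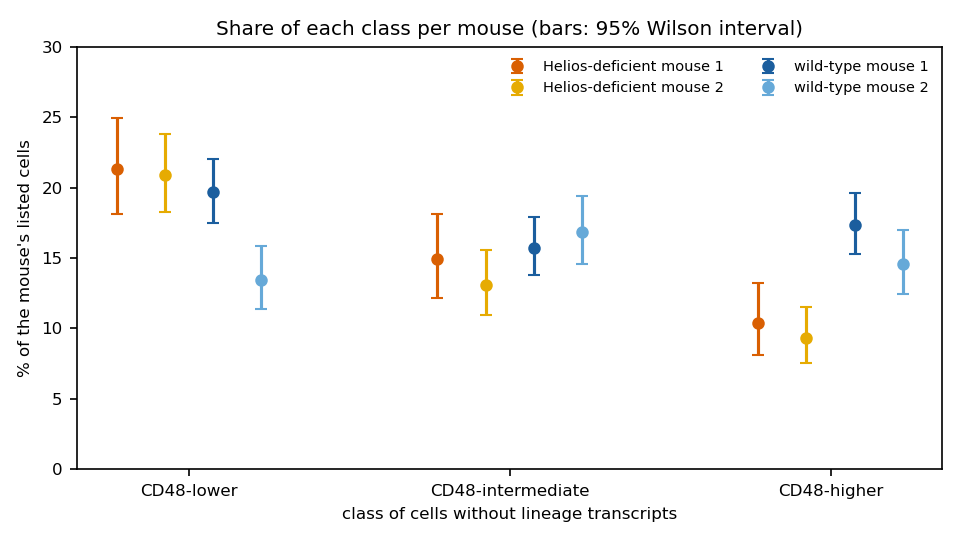
Percentage of each mouse's listed cells (vertical axis) in the CD48-lower, CD48-intermediate and CD48-higher classes of cells without lineage transcripts. Points are mice and bars are 95% Wilson intervals. The intermediate class runs from 13.1% to 16.8% over the 4 mice.

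In the CD48-intermediate cells, the genotypes differed in few genes. Of 8193 tested, 16 were called (0.195%), 3 higher (0.0366%) and 13 lower (0.159%) in Helios-deficient cells, and 559 had an unadjusted p below 0.05. The 3 higher genes were Ctsg, Selp and Ifitm3. Among the lower genes were the protease gene Ctse, and Ltb and Cd52 of the lymphoid priming list. The transcription factor gene Sox4 and the mRNA decay factor gene Zfp36l2 were also lower. Naming required that the mice of the genotypes did not overlap, as they did not for 37.2% of all genes tested. DESeq2 called 7 genes, and leaving out 1 mouse at a time gave 28 to 61. Each of those fits has a genotype with a single mouse, which is assumed to vary like the mice of the other genotype.

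Ctse, which encodes cathepsin E (chromosome 1, 131638314 to 131675507), stood at 12.8 and 13.1 CPM in Helios-deficient cells, and at 109.9 and 81.3 CPM in wild-type cells. The log2 fold change was -2.87 ± 0.27 (edgeR adjusted p = 1.3e-05), with the groups far apart. In the remaining cells of the same mice it was at 8.15 and 13.7 against 76.5 and 82.0 CPM (log2 fold change -2.80). Slc16a11, a monocarboxylate transporter gene, was at 7.13 and 0 CPM against 26.9 and 39.0 CPM (edgeR adjusted p = 0.0094), and the call was lost under the narrower gate (adjusted p = 0.166). Acadl, a fatty acid oxidation enzyme gene, was at 38.5 and 48.2 against 111 and 94.0 CPM (log2 fold change -1.22 ± 0.18, adjusted p = 0.0031). It lies at 66830839 to 66863309 on chromosome 1, and Ikzf2 lies at 69531207 to 69687351 on the same chromosome.

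Ltb was at 137 and 125 CPM in Helios-deficient and at 240.1 and 236 CPM in wild-type intermediate cells (log2 fold change -0.86 ± 0.11, edgeR adjusted p = 0.001). The mice of 1 genotype were alike and the genotypes well apart, although the call was lost with the gate on the CD48 share of tag UMIs (adjusted p = 0.299). Cd52, at 103 and 120.4 against 183 and 194 CPM, was lower by -0.73 (adjusted p = 0.0107). These were the 2 called among 17 lymphoid priming genes, although Ltb fell and Cd52 rose from CD48-lower to CD48-higher cells. The median of the 17 was -0.40 against 0.00 over all genes. A positive value was seen for 2 of the 17, and an unadjusted edgeR p below 0.05 for 6, against 559 of 8193 over all genes. Other lists had higher and lower shares of such genes, given below. With DESeq2 0 of the 17 were called. Satb1, at 25.7 and 38.3 against 61.1 and 52.5 CPM, did not pass (adjusted p = 0.375). Sox4 was at 593 and 524 against 768 and 761 CPM (log2 fold change -0.45 ± 0.08, adjusted p = 0.0094), the 1 call among 17 multipotent progenitor genes.

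Flt3 was at 82.7 and 91.9 CPM in Helios-deficient and at 148 and 135 CPM in wild-type intermediate cells. It missed the threshold (log2 fold change -0.68 ± 0.14, edgeR adjusted p = 0.0503), passed it in 8 of 13 alternatives, 2 of them with a mouse left out, and passed it in the remaining cells (101.4 and 112 against 159 and 151 CPM, adjusted p = 3.2e-04). The raw CD135 tag did not separate the genotypes, with means of 41.2 and 39.5 against 38.8 and 40.3 UMIs per intermediate cell (exact permutation p = 0.667). As a share of the tag UMIs other than CD48, CD135 took 24.948% and 25.165% in Helios-deficient mice. In wild-type mice it took 25.224% and 26.054%, without overlap, and this difference in share was not tested. The mean CD48 tag was 102.2 and 100.8 against 101.5 and 98.9 UMIs (exact permutation p = 0.667).

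Zfp36l2 was lower in Helios-deficient intermediate cells by -0.56 and Shisa5, an endoplasmic reticulum protein gene, by -0.57, and Shisa5 lost its call without wild-type mouse 1 (adjusted p = 0.0956). The globin gene Hbb-bt, the 1 called of 14 erythroid and shared genes, was lower by -1.31 (adjusted p = 0.0033) and lost its call under 3 other gates. Malat1, a nuclear noncoding RNA, was lower by -0.32 (adjusted p = 0.001) and Rac2, a GTPase gene, by -0.45 (adjusted p = 0.0365). Rac2 lost its call in 7 alternatives, among them those without Helios-deficient mouse 2 (0.155), wild-type mouse 1 (0.0586) and wild-type mouse 2 (0.115), and Zfp36l2 with the gate on the CD48 share (0.0984).

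Ctsg was at 39.9 and 37.2 CPM in Helios-deficient and at 13.1 and 3.39 CPM in wild-type intermediate cells, the 1 called of 13 granulocyte and monocyte genes. The log2 fold change of 2.15 (edgeR adjusted p = 0.0112) was 1.09 after thinning (adjusted p = 0.655). Selp, on chromosome 1 at 164115264 to 164150026, was at 52.8 and 46.0 against 16.7 and 11.01 CPM (1.80 ± 0.28, adjusted p = 0.0033) and was the 1 called of 12 megakaryocyte and platelet genes, whose median was 0.32. That call was lost with the gate on the CD48 share of tag UMIs (adjusted p = 0.203). Ifitm3, an antiviral membrane protein gene on the stem cell list, was at 1351 and 1321 against 1014 and 943 CPM (0.45, adjusted p = 0.0012). It was the 1 called of 26 stem cell genes, whose median was -0.04. None of 36 S phase genes was called, while 32 had a positive value (median 0.38, against -0.0016 over all genes). An unadjusted edgeR p below 0.05 was seen for 15 of the 36, against 559 of 8193 over all genes. The same held for 7 of 14 erythroid and shared, 7 of 26 stem cell and 4 of 13 granulocyte and monocyte genes. It also held for 4 of 12 megakaryocyte and platelet and 3 of 17 multipotent progenitor genes. The lymphoid priming and S phase lists were thus not alone in this.

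In the other lists no gene was called between the genotypes by edgeR. At an unadjusted p below 0.05 there were 1 of 43 G2 and M phase, 3 of 21 interferon, 4 of 13 quiescence, 0 of 10 immediate early, 2 of 6 MHC class II, 2 of 24 oxidative phosphorylation, 5 of 20 MYC and nucleolar, 1 of 8 SLAM family and 0 of 3 Ikaros family genes. Over all genes the count was 559 of 8193, and no result is read from the counts of these lists. Their medians lay between -0.08 and 0.17. DESeq2 called 0 S phase, 0 G2 and M phase and 0 interferon genes.

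**Figure D4:**
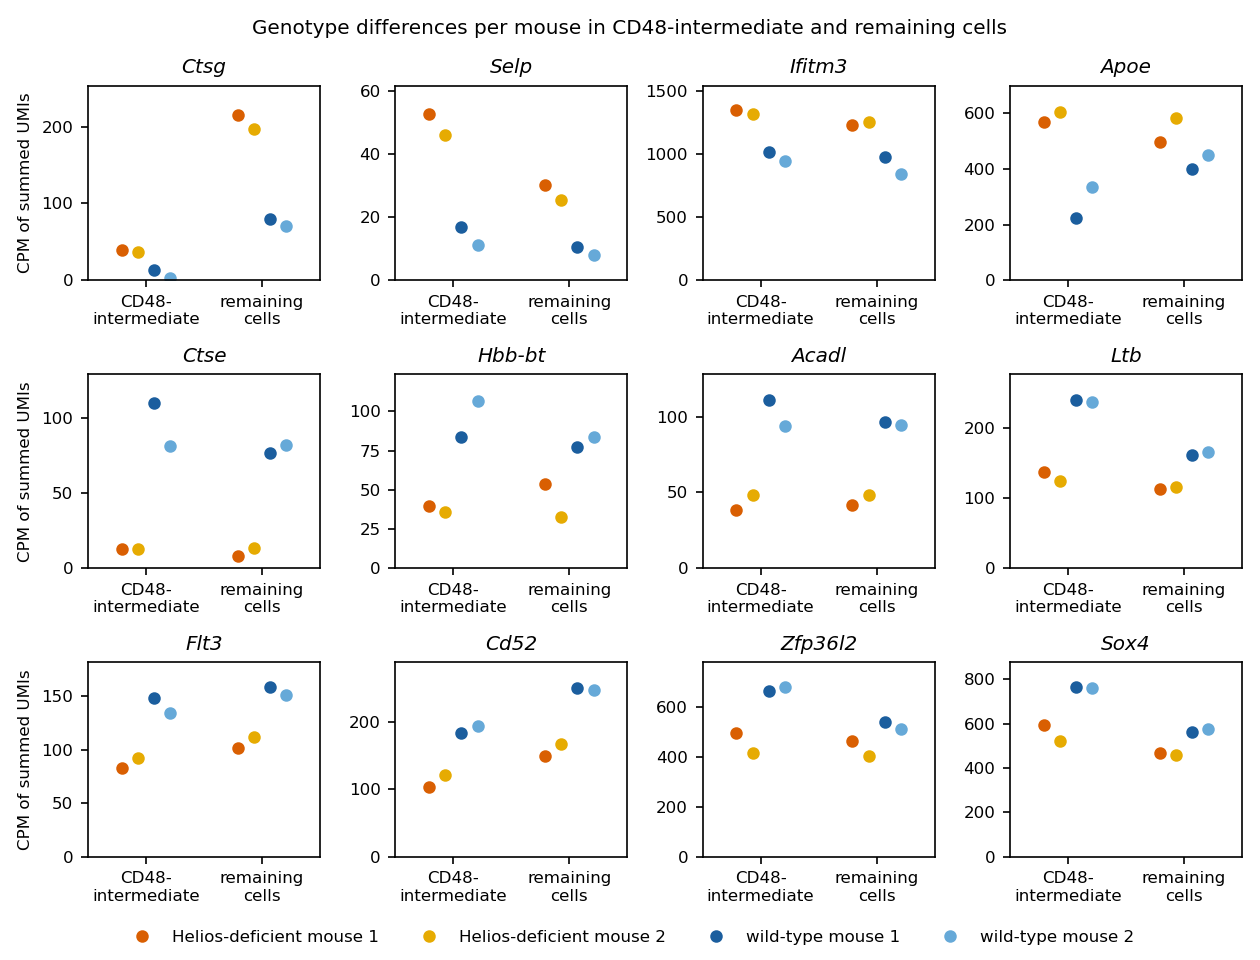
CPM of summed UMIs (vertical axes, each starting at 0) per mouse in CD48-intermediate and remaining cells for the genes named in the panels. Points are mice, coloured by mouse. Ctse sits at 12.8 and 13.1 CPM in the Helios-deficient intermediate cells and at 109.9 and 81.3 in the wild-type ones.

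The genotype difference was then compared between the intermediate and the remaining cells by an interaction term. In the remaining cells 97 of 11432 genes were called (0.848%), 44 higher (0.385%) and 53 lower (0.464%), and the mice did not overlap for 40.2% of genes. That count of 97 fell to 48 when wild-type mouse 2 was left out, and leaving out Helios-deficient mouse 1 or 2 gave 224 and 497. It was 31 with DESeq2, 239 with no count filter and 59 without the robust fit. Of 10696 genes tested, the difference itself was called for 1 (0.00935%), Apoe, which encodes apolipoprotein E. Apoe was at 568 and 604 CPM in Helios-deficient and at 222 and 335 CPM in wild-type intermediate cells, which did not overlap. In the remaining cells it was at 496 and 584 against 399 and 450.1 CPM. The genotype difference was larger in the intermediate cells by 0.75 ± 0.10 on the log2 scale (edgeR adjusted p = 1.9e-04), and it was 0.29 after thinning (adjusted p = 0.976). Within the intermediate cells alone the log2 fold change of 1.10 ± 0.18 missed the threshold (adjusted p = 0.142), and passed it in 12 of 14 alternatives, 4 of them fits with a single mouse in 1 genotype.

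Within the 530 cells, the 265 with the higher CD135 share of the tag UMIs other than CD48 were compared with the 265 others. Both groups came from the same mice. Of 6666 genes, 5 were called (0.075%): the histone variant gene H2afy and the chemokine genes Ccl5 and Ccl4 were higher (0.045%) and the mast cell protease gene Cpa3 and Apoe were lower (0.03%). H2afy was at 1736, 1622, 1955 and 1865 CPM in the upper and at 1297, 1522, 1607 and 1522 CPM in the lower group, higher in each mouse and without overlap (log2 fold change 0.28 ± 0.04, edgeR adjusted p = 1.0e-06). Cpa3 lost its call without Helios-deficient mouse 2 (adjusted p = 0.329), and Apoe and Ccl4 theirs without Helios-deficient mouse 1 (0.187 and 0.696). Flt3 RNA was at 130.2 ± 50.9 against 99.2 ± 17.5 CPM and did not pass (log2 fold change 0.45, adjusted p = 0.363).

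Splitting the cells by the CD150 share gave 5 calls in 6872 genes (0.0728%), all lower in the upper group: Malat1, Ccl4, Hbb-bt, the progenitor gene Plac8 and the actin gene Actb. Plac8 was at 964, 1331, 1251 and 1163 CPM in the upper and at 1402, 1388, 1689.8 and 1262 CPM in the lower group, lower in each mouse (log2 fold change -0.27, edgeR adjusted p = 0.0297). Without Helios-deficient mouse 1 none of the 5 passed. DESeq2 called 0 genes in either split. The CD135 and CD150 shares are taken of the same tag UMIs, so the splits are tied and are not separate results. Ccl4 was called in both, in opposite directions.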

How the data were processed

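Raw UMI counts of 31053 genes and 4 antibody tags per barcode were used as deposited: whole numbers with cell totals that differ. Per the file headers, version 3.0.2 of the counting software wrote the matrix. Genome build mm10, Seurat 3.0.0 and Cell Ranger appear in the submitters' processing notes. The authors' hashtag calls and their list of 3470 kept cells were taken over; the filter behind the list is not given in the sources used here. Barcodes called as mixtures of mice were not on the list, and no doublet caller was run on cells within a mouse. No value column was left unused (0).

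The cells, the gene lists and the markers were chosen with earlier results of these data known. UMIs were summed per mouse and class, since the mouse is the replicate (n = 2 per genotype, 4 for classes, which come from the same animals and therefore carry mouse as a block). Nothing beyond the hashtag says how the mice were raised or handled, and a batch term does not apply to a single run. Sums were tested with edgeR 4.0.16 and limma 3.58.1 in R 4.3.3 (quasi-likelihood, robust, TMM, filterByExpr), with Benjamini-Hochberg adjusted p-values and a threshold of 0.05. Depth was 701220 to 1374293 UMIs per mouse in the 530 cells. Each SE is the size of the log2 fold change divided by the square root of its F value. The 5 genes of the rule were not tested between classes of cells, in the interaction or in the tag splits. They were entered in the genotype test of the remaining cells and are not named there. A low-count filter left members of lists untested, so list counts are over the genes tested.

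Alternatives were DESeq2 1.42.0 (genes without an adjusted p there were left out), no count filter, no TMM, a non-robust fit, no block, each mouse left out, percentiles within each mouse, gates of 35 to 55 and 25 to 65, a gate on the CD48 share of tag UMIs, and cells thinned to 4000 UMIs with 82 shallower cells left out. Thinned gating gave 651 cells, 517 of them among the 530. Leaving out cells with macrophage or B cell markers was chosen after seeing the data, as were the leave-one-out values of shares and tags and the alternatives of the genotype test in the remaining cells. Named genes were Ikzf2, the genes of the tags and markers, the 10 largest called rises and falls with a mean of at least 10 CPM and the same sign in every mouse (for genotype, without overlap), and up to 4 genes per list by p. Some genes that the rule names are not reported here. Malat1 and Rac2 fall outside this rule and were chosen after their values were seen. Shares and tags were tested by exact permutation (2 against 2 cannot go below 0.333, and 4 sign flips not below 0.125). On simulated counts with 200 changed genes, the genotype test (7940 genes) found 21 of 100 1.5-fold and 57 of 100 2-fold changes and made 6 false calls, and the test against CD48-lower cells (8739 genes) 50 and 87 of 100 with 7 false calls. The changed genes were drawn only from those above 10 CPM, so recovery of rarer genes is not covered. Counts were simulated around 1 mean per gene with the trended dispersion. Genes that vary more than the trend were therefore not simulated. In the test against CD48-lower cells, baseline differences between mice were not simulated either. Coordinates come from RefSeq, GRCm38.p6. Python 3.11.15, numpy 2.4.6, scipy 1.17.1, pandas 2.3.3 and matplotlib 3.10.9 were used.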

Additional observations from a re-analysis of the deposited data

Results flagged for a closer look

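Apoe was the 1 gene whose genotype difference in the CD48-intermediate cells differed from that in the remaining cells by a test of the difference itself (interaction term in edgeR, adjusted p = 1.9e-04). The genotype difference was 0.75 ± 0.10 (log2, SE) larger in the intermediate cells, where Apoe was at 568 and 604 CPM in Helios-deficient and 222 and 335 CPM in wild-type mice. Macrophage markers summed to 54.2 and 54.7 against 18.9 and 50.8 CPM in the same cells. Without the cells that carried macrophage or B cell markers, the log2 fold change between genotypes in the intermediate cells was 1.03 (adjusted p = 1.0e-04). After thinning to 4000 UMIs the interaction was 0.29 (adjusted p = 0.976).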

How the results depend on the processing

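No paired analysis was possible because the labels give the genotype groups no shared replicate numbers. For comparisons between classes of the same mice, dropping the mouse block left 357 calls against the remaining cells, 1 in the CD135 split and 1 in the CD150 split, and it removed the calls of Vldlr (adjusted p = 0.302 against CD48-lower, 0.424 against CD48-higher and 0.513 against remaining cells). Leaving out 1 mouse at a time gave 28 to 61 calls for genotype in the CD48-intermediate cells, 279 to 464 against CD48-lower cells (lowest without Helios-deficient mouse 2), 567 to 902 against CD48-higher cells (lowest without wild-type mouse 1, and 629 without wild-type mouse 2), 334 to 559 against the remaining cells (lowest without wild-type mouse 1), 2 to 9 for the interaction, 2 to 9 in the CD135 split and 0 to 13 in the CD150 split. In the genotype and interaction fits this leaves a genotype with 1 mouse, which is assumed to vary like the others. DESeq2 called 7 genes for genotype, 172, 344 and 183 against the lower, higher and remaining cells, and 0 in each tag split. For genotype 38 genes were called with no count filter, 36 with the wider gate and 28 after thinning. Thinning gave 366 calls against the lower cells, 102 against the remaining cells and 0 for the interaction, and the narrower gate gave 566 against the higher and 329 against the remaining cells. The interaction had 5 calls with no count filter, 2 without the robust fit, 5 with percentiles within each mouse, 3 with the CD48 share, 2 with the narrower and 4 with the wider gate. The CD135 split had 9 calls with no count filter and 11 without the robust fit, and the CD150 split 3 without TMM. The log2 difference of Ikzf2 between genotypes, never called, was -0.0683 without Helios-deficient mouse 2 (0.11 without mouse 1), -0.0304 with percentiles within each mouse and -0.0917 with the narrower gate. The genotype difference in the share of intermediate cells was -1.09 points with percentiles within each mouse, -0.801 with the wider gate and -0.153 after thinning. The CD135 tag differed from CD48-higher cells by -0.75 points after thinning. With the CD48 share, CD135 differed from the lower cells by 2.426 and CD150 by -2.951 points. The causes of these shifts were not tested. Thinning changed both the depth and the cells chosen (651, of which 517 were also chosen without it). Of the named genes, 35 of 47 against the lower, 34 of 47 against the higher and 10 of 31 against the remaining cells kept direction and call in every alternative run, as did 7 of 23 for genotype. At simulated 2-fold changes the genotype test recovered 57 of 100 genes drawn from those above 10 CPM.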

Other observations

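Of 372 barcodes with a single-mouse hashtag call that are not among the listed cells, 80 met the rule for CD48-intermediate cells without lineage transcripts. In 77 of these, mitochondrial transcripts made up 5% or more of the UMIs.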
